A study of Homo sapiens with 8 samples.

Results

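The sequence on both sides of the centromere of human chromosome 9 was examined for γH2AX regions. These are stretches of chromatin called as enriched for a histone mark of DNA breaks. The members were the deposited peaks on chromosome 9 (hg19) with their midpoint from 38 Mb to below 72 Mb. There were 1032 of them in the Pt-ttpy list, 1223 in the cisplatin list and 658 in the untreated list. They made up 5.80% of the 17789 Pt-ttpy, 4.76% of the 25671 cisplatin and 6.78% of the 9709 untreated regions on chromosomes 1 to 22 and X. Over the 3 lists this was 2913 of 53169 regions.

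All cells were A2780, a human ovarian carcinoma line. The 8 samples formed 4 groups of 2, namely cells given Pt-ttpy, cells given cisplatin, untreated cells, and input, meaning chromatin of untreated cells handled without antibody. Cells had either drug for 96 hours at the IC80 dose of that drug, which inhibits by 80%. Chromatin in fragments of 200 to 700 bp was immunoprecipitated with an antibody against γH2AX and read in single reads of 50 bases. Cisplatin crosslinks DNA, and Pt-ttpy is a platinum complex that binds G-quadruplexes, stacked structures of guanine-rich DNA. Both replicates of a group are tied to the same list, so each condition has 1 list, without replicates, and no test between conditions could be made. The deposited names of the treated lists join a tag for untreated to that of the drug. Whether this names untreated chromatin as their control is not stated. The folds, described below, are relative to a background that is constant over each list. By fold, a treated region is therefore not measured against the untreated signal at its own place. Any other use of untreated chromatin in making the treated lists would bear on the ratios and overlaps with untreated below. Intervals below are exact 95% intervals that cover counting error only, and neighbouring regions of a cluster are not independent counts. Input was not analysed here, so whether a region is enriched over input at its own place was not tested.

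γH2AX is histone variant H2AX phosphorylated by the kinases that answer DNA breaks, and it spreads over the chromatin around a break. The chromosome 9 centromere is flanked on its long-arm side by one of the large blocks of satellite heterochromatin of the human genome. Next to it, on both arms, lie segmental duplications, long blocks of sequence present in several nearly identical copies. They carry gene families such as FOXD4L (forkhead transcription factors), CNTNAP3 (contactin-associated cell adhesion proteins), SPATA31A (expressed in testis) and CBWD, now named ZNG1 (GTPases that pass zinc to other proteins). Short reads from such copies can match more than 1 place.

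RefSeq (GRCh38.p14) shows how alike the copies on the 2 arms can be. Of 10 duplicated gene families looked up by symbol, all 10 had members on both arms of chromosome 9 there, 44 members in all, and 21 had a promoter in the sequence table. Of those 21, 11 had at least 1 run of 50 bases, the length of a read here, that also occurred in a promoter of the same family on the other arm. SPATA31A (3 members), ZNF658 (1) and AQP7 (1) had promoters there on a single arm only. These members could not share a run with the other arm, so the 21 include some that were not comparable. ZNG1F on the short arm and ZNG1C on the long arm of that build are shown because they were the most alike. In ZNG1F 96.0% and in ZNG1C 96.8% of the runs of 50 bases were found on the other arm. Upstream of the start sites, 240 of 240 bases were identical, on the minus strand for ZNG1F and the plus strand for ZNG1C. The shared stretch is printed once, in lower case, with no capitals because no base differed.
ZNG1F and ZNG1C: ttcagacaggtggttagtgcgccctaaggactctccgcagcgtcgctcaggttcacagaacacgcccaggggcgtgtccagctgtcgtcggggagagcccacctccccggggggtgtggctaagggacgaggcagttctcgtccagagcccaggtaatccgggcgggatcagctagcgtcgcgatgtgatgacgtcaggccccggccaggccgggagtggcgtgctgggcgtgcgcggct
These genes are not placed on the hg19 positions of the lists, and some members may lie outside the window. Their arms are those of GRCh38.p14 and were not checked in hg19, so ZNG1F and ZNG1C may not be on opposite sides there. Whether reads were shared between copies was not tested. No genome of the build hg19 was used, so the sequence under each region, and the genes there, are not given.

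The long-arm side held most regions in every list, and the short-arm side held a larger part after either drug than without. The short-arm side held 253 Pt-ttpy regions (interval 223 to 286), 338 cisplatin regions (303 to 376) and 70 untreated regions (54.6 to 88.4). On the long-arm side there were 779 Pt-ttpy (725 to 836), 885 cisplatin (828 to 945) and 588 untreated regions (541 to 638). The short-arm side thus held 24.5% of the Pt-ttpy (21.9 to 27.3), 27.6% of the cisplatin (25.1 to 30.2) and 10.6% of the untreated regions (8.39 to 13.2). The untreated interval did not overlap that of either drug, while the intervals of the drugs overlapped each other.

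Set against the deposited untreated list, the excess of treated regions was larger on the short-arm side. There were 3.61 Pt-ttpy regions per untreated region on the short-arm side (2.76 to 4.78) and 1.32 on the long-arm side (1.19 to 1.48). For cisplatin the ratios were 4.83 on the short-arm side (3.72 to 6.34) and 1.51 on the long-arm side (1.35 to 1.67). Over chromosomes 1 to 22 and X they were 1.83 for Pt-ttpy and 2.64 for cisplatin, so the short-arm side lay above and the long-arm side below the ratio of the lists as a whole. Within 5 Mb of the other centromere gaps the ratios were 1.42 for Pt-ttpy and 1.59 for cisplatin, near those of the long-arm side. On the other chromosomes beyond these flanks they were 2.95 for Pt-ttpy and 5.51 for cisplatin, each inside the short-arm interval. The flanks pool both arms and end 5 Mb from a gap, while both sides of the chromosome 9 window reach farther out. There were 0.749 Pt-ttpy regions per cisplatin region on the short-arm side (0.633 to 0.884) and 0.880 on the long-arm side (0.798 to 0.970), and 0.693 over chromosomes 1 to 22 and X.

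These ratios rest on the length and completeness of the lists. When the 9709 regions of highest -log10 q were taken from each list, the short-arm ratios to untreated were 1.54 for Pt-ttpy and 1.46 for cisplatin. The long-arm ratios then turned to just below 1, at 0.968 for Pt-ttpy and 0.905 for cisplatin, and the order of the drugs turned as well, with 1.06 Pt-ttpy regions per cisplatin region on the short-arm and 1.07 on the long-arm side. The untreated list also lacks peak numbers, which run in order along the genome. Of its numbers on the short-arm side 66 were kept and 90 were missing between them (57.7% missing), and on the long-arm side 529 were kept and 189 missing (26.3%), against 49.0% missing in the whole list. With missing numbers counted, the untreated list had 156 numbers on the short-arm and 718 on the long-arm side. The ratios to untreated were then 1.62 for Pt-ttpy and 2.17 for cisplatin on the short-arm side, and 1.08 and 1.23 on the long-arm side. The short-arm share of the untreated list was then 17.8%. Not counted were 16 missing numbers across the lower edge of the window, 5 between the sides and 3 across the upper edge. Any of the 16 or the 5 that belong to the short-arm side would raise its untreated number and lower its ratios further. The direction of the difference between the sides was the same in both settings, and its size was smaller.

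Along the chromosome the regions stood in a few blocks. Of the short-arm windows of 1 Mb, 9 held regions in any list, and 6 of these held untreated regions. The window from 42 to 43 Mb was the densest there, with 113 Pt-ttpy, 132 cisplatin and 25 untreated regions. It held 44.7% of the Pt-ttpy, 39.1% of the cisplatin and 35.7% of the untreated regions of that side. The next were the windows from 45 to 46 Mb, with 44 Pt-ttpy, 45 cisplatin and 19 untreated regions, and from 46 to 47 Mb, with 33, 50 and 5 regions in the same order of lists. From 38 to 41 Mb the 3 windows held 3, 2 and 3 Pt-ttpy regions and 5, 7 and 7 cisplatin regions, with 0 untreated regions in each. A count of 0 here says that no peak was called and kept, not that the mark was absent. The 16 missing untreated numbers across the lower edge of the window could lie here, as the first kept untreated region starts at 41956438.

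The windows of the long-arm side differed in how far the lists departed from each other. The window from 68 to 69 Mb was the densest, with 245 Pt-ttpy, 257 cisplatin and 255 untreated regions, nearly equal numbers. The window from 66 to 67 Mb was also close to balance, with 174 Pt-ttpy, 186 cisplatin and 161 untreated regions. Between and beyond them the treated lists were longer. The window from 69 to 70 Mb held 231 Pt-ttpy, 266 cisplatin and 134 untreated regions, that from 67 to 68 Mb held 63, 91 and 21, and that from 70 to 71 Mb held 64, 85 and 17. Missing untreated numbers were a small part of the dense window, with 31 missing beside 224 kept from 68 to 69 Mb. They were more than the kept ones in the sparse windows, with 22 beside 20 from 67 to 68 Mb and 23 beside 17 from 70 to 71 Mb. With these counted, the untreated list had 255 numbers from 68 to 69 Mb, 187 from 69 to 70 Mb, 42 from 67 to 68 Mb and 40 from 70 to 71 Mb. From 66 to 67 Mb it had 185, more than the 174 Pt-ttpy regions there, which turns the order of Pt-ttpy and untreated in that window. In the densest short-arm window, from 42 to 43 Mb, it had 60, still fewer than the regions of either drug. Missing numbers that span a window edge are left out, so these window totals are lower bounds. The order against cisplatin is therefore not settled from 66 to 67 Mb (185 against 186 regions) or from 68 to 69 Mb (255 against 257). By kept regions only, cisplatin outnumbered untreated in all 11 windows that held untreated regions, and Pt-ttpy did so in 10. Cisplatin regions outnumbered Pt-ttpy regions in all 14 windows that held both.

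**Figure D1:**
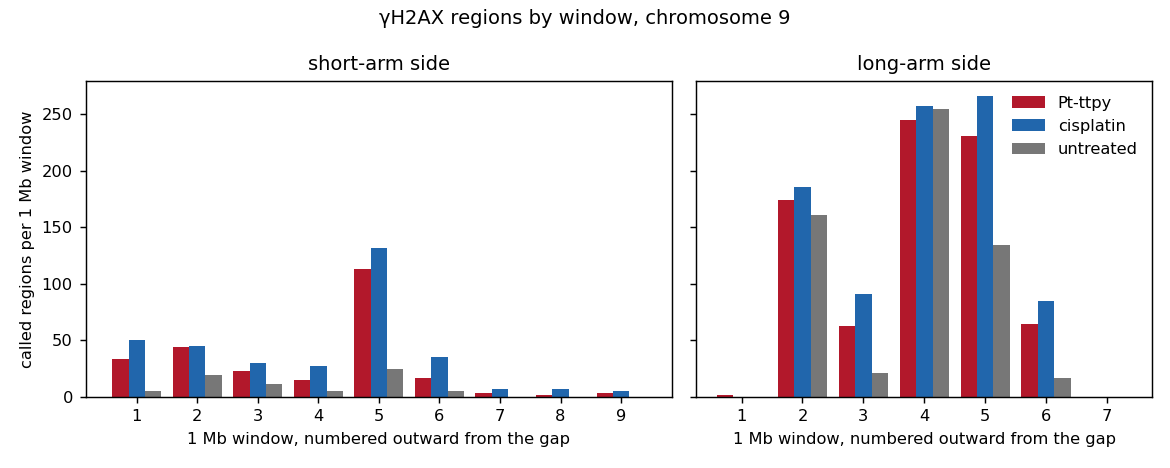
Number of called γH2AX regions in each 1 Mb window (y axis) against the window's place counted outward from the centromere and heterochromatin gap (x axis), with bars for the Pt-ttpy, cisplatin and untreated lists. On the short-arm side (left) window 5 reaches 113 Pt-ttpy, 132 cisplatin and 25 untreated regions, and on the long-arm side (right) window 4 has 245, 257 and 255.

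Blocks of regions less than 10 kb apart in any list show the same arrangement at a finer scale. There were 88 such blocks on the short-arm and 74 on the long-arm side, of which 68 and 49 held no untreated region. A single region made up 33 short-arm and 26 long-arm blocks, which cannot hold more than 1 list. Missing untreated numbers are not counted in the blocks, and blocks were not formed outside the window. The largest lay from 68332952 to 68513534 and held 151 Pt-ttpy, 154 cisplatin and 169 untreated regions. It is 1 of the blocks with more untreated than treated regions, although these untreated regions covered 75.1 kb, against 102.5 kb for Pt-ttpy and 104.4 kb for cisplatin. The block from 69769482 to 69847074 held 64 Pt-ttpy, 73 cisplatin and 24 untreated regions. The largest short-arm block ran from 42719839 to 42791360, with 40 Pt-ttpy, 36 cisplatin and 14 untreated regions. The block from 42480221 to 42555826 held 16 Pt-ttpy and 22 cisplatin regions against 2 untreated regions. The 5 largest blocks of the long-arm side held 63.2% of its Pt-ttpy, 57.7% of its cisplatin and 74.5% of its untreated regions, so that untreated regions were the most gathered.

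The places called in untreated cells were nearly all called after either drug. Of the untreated regions in the window, 95.9% overlapped a Pt-ttpy region by at least 1 bp (94.1 to 97.3), where 95.1% did over chromosomes 1 to 22 and X. With cisplatin regions 97.4% overlapped (95.9 to 98.5), against 96.1% genome-wide. These shares are near the background and single out nothing on chromosome 9. Of the 658 untreated regions, 8 lay on no treated region, 2 of them on the short-arm and 6 on the long-arm side, with a median width of 68.5 bp.

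In the other direction the sides differed, and they lay on opposite sides of the background. Of the Pt-ttpy regions, 22.1% on the short-arm side (17.2 to 27.8) and 56.0% on the long-arm side (52.4 to 59.5) overlapped an untreated region, where 39.5% did over chromosomes 1 to 22 and X. Of the cisplatin regions, 17.8% on the short-arm side (13.8 to 22.3) and 47.7% on the long-arm side (44.3 to 51.0) did, against 27.3% genome-wide. No interval of a short-arm share reached that of the long-arm side or the background. For the flanks of the other centromere gaps the shares were 51.0% for Pt-ttpy and 45.3% for cisplatin, closer to the long-arm than to the short-arm side. On the other chromosomes beyond these flanks they were 24.3% for Pt-ttpy and 13.2% for cisplatin, closer to the short-arm side. With the top 9709 regions of each list the shares were 45.4% on the short-arm and 71.7% on the long-arm side for Pt-ttpy, and 44.1% and 72.9% for cisplatin. The 90 missing untreated numbers of the short-arm side compare with 197 Pt-ttpy and 278 cisplatin regions there that lay off the untreated list. On the long-arm side 189 missing numbers compare with 343 Pt-ttpy and 463 cisplatin regions off that list.

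The drugs had more places in common on the long-arm side. Of the Pt-ttpy regions, 56.9% on the short-arm side (50.6 to 63.1) and 85.1% on the long-arm side (82.4 to 87.5) overlapped a cisplatin region, where 69.9% did genome-wide. Of the cisplatin regions, 42.0% on the short-arm side (36.7 to 47.5) and 72.1% on the long-arm side (69.0 to 75.02) overlapped a Pt-ttpy region, against 47.8% genome-wide. The short-arm shares lay below and the long-arm shares above the background, the cisplatin share on the short-arm side by the smallest margin. For the flanks of the other centromere gaps the shares were 83.7% for Pt-ttpy on cisplatin and 73.6% for cisplatin on Pt-ttpy, near those of the long-arm side. On the other chromosomes beyond these flanks they were 51.9% and 27.5%, below those of the short-arm side.

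**Figure D2:**
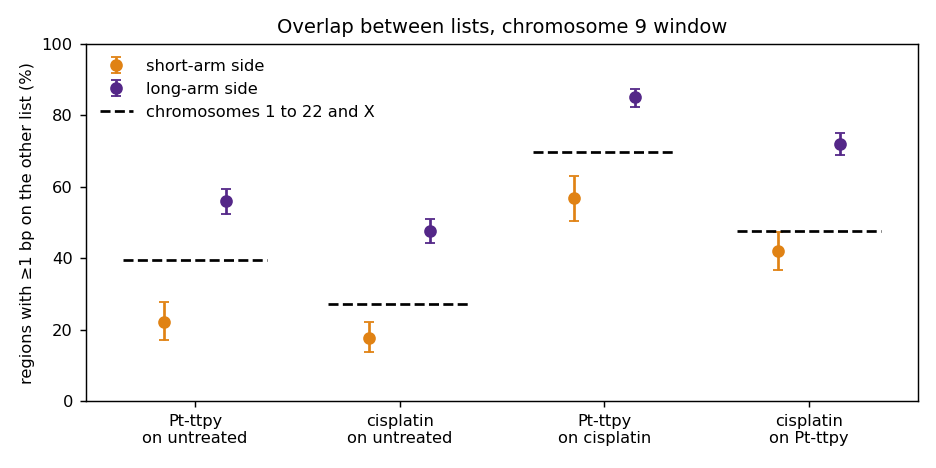
Share of the regions of 1 list that overlap another list by at least 1 bp (y axis, %) for 4 pairs of lists (x axis), on the short-arm and the long-arm side, with exact 95% intervals for counting error, and dashed lines for the share over chromosomes 1 to 22 and X. In each pair the short-arm point lies below and the long-arm point above the dashed line, for example at 22.1% and 56.0% around 39.5% for Pt-ttpy on untreated.

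Joining the regions of the 3 lists that overlap gave 1397 loci, 447 on the short-arm and 950 on the long-arm side. On the short-arm side 55 loci (12.3%) were in all 3 lists, 85 (19.0%) in both treated lists but not the untreated one, 108 (24.2%) in the Pt-ttpy list only and 191 (42.7%) in the cisplatin list only. On the long-arm side 377 loci (39.7%) were in all 3 lists, 204 (21.5%) in both treated lists, 112 (11.8%) in the Pt-ttpy list only and 237 (24.9%) in the cisplatin list only. Loci of both drugs without an untreated region thus made up a like share on the 2 sides, with intervals of 15.5 to 22.97% on the short-arm and 18.9 to 24.2% on the long-arm side. Loci were joined within the window only, so there is no share over all chromosomes to set beside these. The 90 short-arm and 189 long-arm missing untreated numbers have no position, so some loci without an untreated region may have lost one. Loci in all 3 lists were wider, with a median of 287 bp on the short-arm and 500 bp on the long-arm side, than loci of Pt-ttpy only (136 and 129.5 bp) or cisplatin only (134 and 135 bp).

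**Figure D3:**
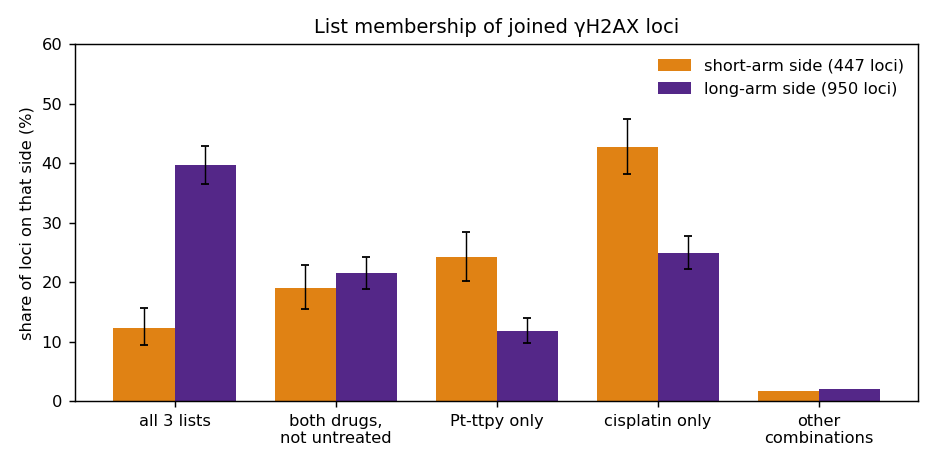
Share of joined loci (y axis, % of the loci on that side) by the lists that called them (x axis), for the 447 short-arm and the 950 long-arm loci, with exact 95% intervals for counting error on all but the last pair of bars. Loci in all 3 lists made up 12.3% of the short-arm and 39.7% of the long-arm loci, and loci in the cisplatin list only 42.7% and 24.9%. No share over all chromosomes was computed.

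Treated regions off the untreated list had lower folds than those on it, and often lay close to untreated regions. The fold of a region, as the authors deposited it, is relative to a background that is constant over a list: each fold went with 1 -log10 q, and the folds were spaced at 0.129 in the Pt-ttpy, 0.173 in the cisplatin and 0.301 in the untreated list. Folds are therefore read within a list only. Pt-ttpy regions had a median fold of 3.52 off and 4.88 on the untreated list on the short-arm side, and 3.78 and 5.91 on the long-arm side. Cisplatin regions had a median fold of 3.46 off and 4.85 on the untreated list on the short-arm side, and 3.81 and 6.40 on the long-arm side. The median fold over chromosomes 1 to 22 and X was 3.91 in the Pt-ttpy and 3.64 in the cisplatin list, so the off-list regions were below that of their list, except for cisplatin on the long-arm side, which was above it. Off-list regions lay at a median distance from the nearest untreated region of 11.2 kb (Pt-ttpy) and 16.4 kb (cisplatin) on the short-arm side, and of 1.42 kb and 2.32 kb on the long-arm side. Within 1 kb of an untreated region lay 19.3% of them for Pt-ttpy and 14.7% for cisplatin on the short-arm side, against 45.5% and 38.7% on the long-arm side. More than 100 kb away were 31 Pt-ttpy and 56 cisplatin regions on the short-arm side and 13 and 31 on the long-arm side. Regions off the untreated list were thus farther from untreated ones on the short-arm side, where untreated regions were also fewer.

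The regions were narrow, and those of the long-arm side were wider. The median width on the short-arm side was 147 bp for Pt-ttpy, 150.5 bp for cisplatin and 127 bp for untreated, and on the long-arm side 225 bp, 219 bp and 186 bp in the same order of lists. Medians of the whole lists were 185 bp, 169 bp and 164 bp, so that each list was below its own median on the short-arm and above it on the long-arm side. In the flanks of the other centromere gaps the medians were 220 bp, 215 bp and 168 bp. On the other chromosomes beyond these flanks they were 160 bp, 151 bp and 151 bp. Regions over 1 kb numbered 2 in the Pt-ttpy, 2 in the cisplatin and 1 in the untreated list on the short-arm side, against 68, 58 and 28 on the long-arm side. Regions covered 53.1 kb (Pt-ttpy), 69.6 kb (cisplatin) and 11.4 kb (untreated) on the short-arm side, with mean widths of 210 bp, 206 bp and 163 bp. On the long-arm side they covered 332 kb, 364 kb and 189 kb, with mean widths of 426 bp, 411 bp and 321 bp. By covered length the short-arm side held 13.8% of the Pt-ttpy, 16.1% of the cisplatin and 5.70% of the untreated total, less than by number of regions in each list. The widths are those of called peaks and do not measure how far γH2AX spreads. The short-arm medians, and the untreated median of the long-arm side, were below the 200 bp of the shortest sonicated fragments. No treated region was narrower than 101 bp, while untreated regions went down to 1 bp and 96 of the 658 were under 101 bp. Of the untreated regions, 121 had their peak number in common with another region of that list, and 16 of these were under 101 bp.

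**Figure D4:**
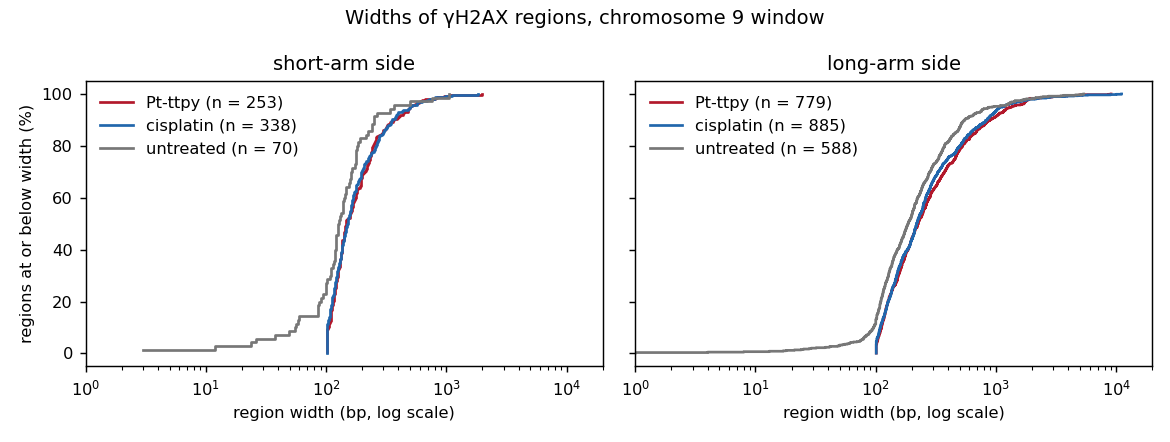
Cumulative share of regions (y axis, %) at or below a given width (x axis, bp, log scale) for the Pt-ttpy, cisplatin and untreated lists on the short-arm (left) and the long-arm side (right). The treated curves nearly coincide and start at 101 bp, with medians of 147 and 150.5 bp on the short-arm and 225 and 219 bp on the long-arm side, and the untreated curves lie to the left of them.

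Signal strength within a list also differed between the sides. A -log10 q of at least 5 was reached by 46.6% of the Pt-ttpy, 42.6% of the cisplatin and 55.7% of the untreated regions on the short-arm side, and by 76.3%, 71.5% and 78.7% on the long-arm side. Over chromosomes 1 to 22 and X the shares were 57.6%, 46.9% and 73.9%. The short-arm side was below and the long-arm side above these in each list.

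The strongest regions were called at the same places in all 3 conditions. The strongest of the window was on the long-arm side, at 66970956 to 66971758 after Pt-ttpy, 66970799 to 66971758 after cisplatin and 66970959 to 66971754 in untreated cells. Its fold of 26.3 (Pt-ttpy), 35.1 (cisplatin) and 60.4 (untreated) was the highest value of each list, which 21, 20 and 11 regions of those lists reached, so it cannot be ranked above these. A pair of neighbouring places came next. From 66832949 to 66835376 the Pt-ttpy list had 1 region with a fold of 23.6, the cisplatin list had 2 regions from 66832946 to 66835366 with folds up to 29.1, and the untreated list 2 regions from 66832956 to 66835353 with folds up to 47.5. Pt-ttpy also had a region from 66823400 to 66825651 with a fold of 19.7, which overlapped a cisplatin region from 66820791 to 66825615 and 3 untreated regions between 66823415 and 66825548. The lists thus cut the same stretch into different numbers of regions, while their outer edges often lay close together.

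On the short-arm side the strongest region was at 44992410 to 44993482 after Pt-ttpy, 44992404 to 44993517 after cisplatin and 44992414 to 44993471 in untreated cells. Its folds were 20.1 (Pt-ttpy), 23.7 (cisplatin) and 36.1 (untreated), below the highest of each list. The region at 44876118 to 44876377 in the Pt-ttpy list (fold 14.9) was matched at 44876112 to 44876349 after cisplatin (17.1) and at 44876124 to 44876375 in untreated cells (17.7). The region at 45729105 to 45729316 in the Pt-ttpy list (14.9) was matched at 45729107 to 45729311 after cisplatin (16.1) and at 45729120 to 45729292 in untreated cells (18.3). At 44070176 to 44070801 the cisplatin list had a fold of 20.1, where the Pt-ttpy region ran from 44070204 to 44070798 (14.5) and 2 untreated regions lay between 44070222 and 44070801 (up to 31.6). All of these places were called without a drug, each high within its own list.

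The widest regions were on the long-arm side. The widest in the cisplatin list ran from 66475437 to 66486524 over 11088 bp. The same stretch held 5 Pt-ttpy regions that covered 10344 bp and 7 untreated regions that covered 9228 bp. The widest Pt-ttpy region, of 9061 bp, ran from 66457921 to 66466981, where the cisplatin list had 1 region of 8993 bp and the untreated list 3 regions, of which the 5363 bp region from 66458184 to 66463546 was the widest of that list. From 68413875 to 68422475 the Pt-ttpy list had a region of 8601 bp, inside a cisplatin region of 9969 bp from 68412804 to 68422772. These stretches were thus covered almost throughout in each list, with more breaks in the untreated one. The widest of the short-arm side was a Pt-ttpy region of 1997 bp from 45353140 to 45355136. There the cisplatin list had a region of 1828 bp, and the untreated list had 3 regions that covered 1070 bp.

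Where a locus had exactly 1 region in each list, its edges were compared. There were 286 such loci, 48 on the short-arm and 238 on the long-arm side. The median difference in start was 25 bp between Pt-ttpy and untreated, 30 bp between cisplatin and untreated and 17 bp between the drugs, and the median difference in summit 25 bp, 24 bp and 17 bp. The Pt-ttpy region was the wider one at 254 and the cisplatin region at 264 of the 286 loci when set against untreated, with median widths of 261 bp (Pt-ttpy), 265 bp (cisplatin) and 148 bp (untreated). Between the drugs the Pt-ttpy region was wider at 120 of the 286 loci. Both ends lay within 20 bp at 69 loci (24.1%) for Pt-ttpy and untreated, 49 (17.1%) for cisplatin and untreated and 83 (29.0%) for the drugs. In the untreated list 126 of the 658 regions do not contain their own summit, and what part this has in the smaller untreated widths was not tested.

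The strongest treated regions off the untreated list, 2 per drug and side, were mostly present after both drugs. By -log10 q they ranked between 2374 and 4548 of 18223 regions in the Pt-ttpy list and between 2588 and 3962 of 26121 in the cisplatin list, all chromosomes included. On the long-arm side, the Pt-ttpy region from 66857773 to 66858840 had a fold of 7.01 and 2 cisplatin regions on it, the stronger with a fold of 8.48, and the nearest untreated region was 0.19 kb away. The Pt-ttpy region from 69784291 to 69784493, also with a fold of 7.01, overlapped a cisplatin region with a fold of 5.54. Cisplatin regions at 69042051 to 69042265 and 69056360 to 69056521, each with a fold of 7.10, overlapped Pt-ttpy regions with folds of 5.46 and 5.59. On the short-arm side the cisplatin region from 44073200 to 44073553 (fold 6.40) overlapped a Pt-ttpy region with a fold of 4.69, and that from 42741562 to 42741837 (5.89) overlapped one with a fold of 4.30. The Pt-ttpy region from 44878924 to 44879035 (5.59) overlapped a cisplatin region with a fold of 5.89. Of these 8 regions, the Pt-ttpy region from 44069110 to 44069221 (5.33) was the one with no region of the other drug on it. Their distance to the nearest untreated region was at most 2.40 kb. Sharing was less common among all off-list regions of the window. Of 540 such Pt-ttpy regions, 320 had a cisplatin counterpart (median fold 3.91) and 220 had none (3.39). For cisplatin, 313 of 741 had a Pt-ttpy counterpart (3.81) and 428 had none (3.46). Sharing of off-list regions was counted within the window only, so there is no share over all chromosomes to set beside these. Whether it differs from the rest of the genome was not tested. The 8 regions were picked by high -log10 q, so they do not stand for off-list regions in general.

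Chromosome 9 outside the window was sparse by comparison. It held 66 Pt-ttpy, 129 cisplatin and 34 untreated regions, against 1032, 1223 and 658 inside. Of the regions outside, 39.4% of Pt-ttpy and 20.9% of cisplatin regions overlapped an untreated region, against 47.7% and 39.4% inside. With so few regions outside, the Pt-ttpy intervals overlapped, at 44.6 to 50.8% inside and 27.6 to 52.2% outside. Those of cisplatin did not, at 36.7 to 42.2% inside and 14.3 to 28.97% outside.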

How the data were processed

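Per the labels, γH2AX chromatin of A2780 cells was sequenced in 3 treatment groups with 2 samples each, beside input. The build hg19 and the tools BWA 0.7.5 and MACS2 2.1.0 are those of the submitters' processing notes. How peaks were called, against which control and over which replicates is not given. The authors deposited 1 peak list per group. Per peak, the values deposited by the authors are a fold enrichment ratio, a -log10 q-value, a whole-number score and a summit offset. Depth is unknown.

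Regions were placed by their midpoint, on the short-arm or long-arm side of the centromere and heterochromatin gap. Gaps were entered from general knowledge of hg19, and 0 region midpoints lay inside one. Overlap was at least 1 bp. Shares and ratios carry exact (Clopper-Pearson) and counts exact Poisson 95% intervals. The code was tested on simulated regions. The region names followed a fixed rule: per list and side the 3 of highest -log10 q and the 3 widest, per treated list and side the 2 of highest -log10 q off the untreated list, and per side the 3 densest windows of 1 Mb. Blocks, other windows, distances, edge comparisons and the ZNG1 pair were chosen after values were seen. The members and lists were chosen with earlier results of these data known. Alternatives were a -log10 q of at least 5, equal numbers of top regions, merging within 1 kb, overlap of at least 50% of the region, covered length, a window from 39 to 71 Mb and the missing untreated numbers. Gene families were looked up in RefSeq GRCh38.p14 by symbol only, and the comparison of sequence between the arms that was planned on hg19 was not run. The tools were matplotlib 3.10.9, scipy 1.17.1, pandas 2.3.3 and numpy 2.4.6 under Python 3.11.15.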

Additional observations from a re-analysis of the deposited data

How the results depend on the processing

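With the narrower window from 39 to 71 Mb, all 25 values examined moved by less than their counting interval or, for counts, by less than 1.5 times. The short-arm share was higher for both drugs than for untreated with the stricter q, equal numbers, merging, covered length, the narrower window and missing numbers. Ratios to untreated were higher on the short-arm than on the long-arm side in these settings except covered length, where they were not computed. Shares of treated regions on the untreated list were lower on the short-arm side with the stricter q, equal numbers, merging, 50% coverage and the narrower window. Missing numbers have no position, so these shares could not be recomputed with them. With a -log10 q of at least 5, the short-arm side had 118 Pt-ttpy, 144 cisplatin and 39 untreated regions and 3.69 cisplatin regions per untreated region. Short-arm shares were then 16.6% (Pt-ttpy), 18.5% (cisplatin) and 7.77% (untreated). Shares on the untreated list were 54.1% for Pt-ttpy (28.0% on the short-arm side) and 47.6% for cisplatin (53.4% on the long-arm side), and 83.0% of Pt-ttpy regions lay on cisplatin, 73.6% of cisplatin on Pt-ttpy and 97.4% of untreated on Pt-ttpy regions. With equal numbers of top regions, the ratios reversed on the long-arm side for Pt-ttpy (0.968) and cisplatin (0.905) to untreated, and for Pt-ttpy to cisplatin on the short-arm (1.06) and long-arm side (1.07). There were then 108 Pt-ttpy and 102 cisplatin regions on the short-arm side (1.54 and 1.46 per untreated region) and 532 cisplatin regions on the long-arm side. Short-arm shares were 16.0% for Pt-ttpy and 16.1% for cisplatin. On the untreated list lay 67.5% of Pt-ttpy (45.4% short-arm, 71.7% long-arm) and 68.3% of cisplatin regions (44.1% and 72.9%), while 82.6% of cisplatin regions lay on Pt-ttpy, and 90.7% of untreated regions on Pt-ttpy and 89.97% on cisplatin. This setting shortens the treated lists by construction. Merging within 1 kb left 156 Pt-ttpy and 211 cisplatin regions on the short-arm side and 235 Pt-ttpy, 269 cisplatin and 154 untreated regions on the long-arm side, with long-arm ratios to untreated of 1.53 and 1.75. Short-arm shares were 39.9% (Pt-ttpy), 43.96% (cisplatin) and 23.8% (untreated). On the untreated list lay 35.8% of Pt-ttpy (43.8% long-arm) and 26.5% of cisplatin regions (33.8% long-arm), with 69.6% of Pt-ttpy on cisplatin and 51.9% of cisplatin on Pt-ttpy. Requiring 50% of the region to be covered gave 33.9% for Pt-ttpy on untreated (15.0% short-arm, 40.1% long-arm), 26.5% for cisplatin on untreated (11.2% and 32.3%), 72.3% for Pt-ttpy on cisplatin and 57.9% for cisplatin on Pt-ttpy. By covered length the short-arm shares were 13.8% (Pt-ttpy), 16.1% (cisplatin) and 5.70% (untreated). With missing numbers counted, untreated had 156 numbers on the short-arm side, the ratios were 1.62 and 2.17 there and 1.08 and 1.23 on the long-arm side, and, in an alternative added after the data were seen, the untreated short-arm share was 17.8%. The cause of these shifts was otherwise not tested. No paired analysis was possible because both replicates of a group are tied to 1 list. Read depth is unknown, so its limit on the calls cannot be given.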

Other observations

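In the untreated list the deposited summit lay outside its own region for 126 of the 658 regions, 15 of them on the short-arm and 111 on the long-arm side. No treated region in the window had this (0 for Pt-ttpy, 0 for cisplatin). Between 65 and 66 Mb, nearest to the gap on the long-arm side, 2 Pt-ttpy regions were called, with 0 cisplatin and 0 untreated regions.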
